A study of Homo sapiens with 6 samples.

Results

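The 48 genes described here encode the enzymes and transporters of central carbon metabolism. They were the rows of the deposited count table whose gene name stood on a fixed list, and 48 of 48 names were found, 1 row each, among the 58735 genes of the table. They comprised 26 genes of glycolysis, glucose and lactate transport and pyruvate entry, 6 of the pentose phosphate pathway and 16 of the citrate cycle with its refilling reactions. The cells were LN229, an established human glioblastoma line, in 2 groups of 3 libraries. One group carried HSD52 overexpression and is called HSD52_OE; the other has the genotype WT and is called control. The labels name no vector in the control cells, no drug, no time point and no separate cultures. Each p-value is thus judged against library-to-library spread alone, and that spread may be technical.

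Glycolysis splits glucose into pyruvate, and lactate dehydrogenase and the monocarboxylate transporters turn pyruvate into lactate and carry it across the plasma membrane. The pentose phosphate pathway branches off after the first step and supplies NADPH and ribose for nucleotides. The citrate cycle oxidises the acetyl group made from pyruvate in mitochondria, and glioma cells are known for a high rate of glycolysis even with oxygen present. Transcript counts say nothing of enzyme activity or flux, and in bulk libraries fewer cells with a transcript and less transcript per cell cannot be told apart.

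Libraries held 17777157 to 18917790 counts, so 1 CPM (the depth-scaled count, with edgeR's TMM composition factors) stood for 17.1 to 19.7 counts. The groups differed in composition. Control libraries had 22855 to 23545 genes with a count and TMM factors of 0.940 to 0.987. HSD52_OE libraries had 26359 to 26755 such genes and factors of 1.042 to 1.048. Of all genes tested, 1707 were called and at least 2-fold higher, and 570 were called and at least 2-fold lower. The part of this difference in the results below was not tested. HSD52 (ENSG00000224609) had 11, 7 and 12 counts in the control libraries and 1252, 1336 and 1327 in HSD52_OE. Of 12 neural and glioma markers, SOX2, NES, VIM, S100B, CD44, FABP7 and OLIG2 were clearly present in both groups. AQP4 averaged 0.037 CPM in control and 0.053 CPM in HSD52_OE. EGFR (52.4 to 25.4 CPM on average), PDGFRA (33.2 to 21.4 CPM) and SOX9 (1.10 to 0.0879 CPM) were lower in HSD52_OE. GFAP was low in both groups and higher in HSD52_OE (4.83 to 7.29 CPM). S100B and CD44 were also lower, and SOX2 and FABP7 higher. EPCAM, CDH1, CD3E and AIF1, markers of epithelial and blood cells, were at or near 0. The epithelial keratins KRT8 and KRT18 were present and higher in HSD52_OE (25.7 to 50.3 CPM and 99.0 to 125 CPM on average, edgeR adjusted p = 1.13e-06 and 0.00540), and the 5 epithelial markers summed to 117.8 to 136.6 CPM in control and 168.5 to 180.6 CPM in HSD52_OE. The 8 fibroblast markers summed to 114.3 to 207.2 CPM in the control libraries and to 45.8 to 48.2 CPM in HSD52_OE, 7 of them lower and FAP higher. The part of these glioma markers, keratins and fibroblast markers in the results below was not tested. Control libraries varied more than HSD52_OE libraries. The coefficient of variation of the members had a median of 8.28% in control and 3.40% in HSD52_OE, and 29 of the 48 members had their lowest control value in control replicate 3.

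Most of these genes had lower transcript levels in HSD52_OE cells. All 48 passed the filter on low counts, and 32 were lower, 6 were higher and 10 did not pass an adjusted p of 0.05 (edgeR, quasi-likelihood F-test, Benjamini-Hochberg over 16322 genes). Over all genes tested 25.6% were lower and 25% were higher, against 66.7% and 12.5% of the members. The median log2 fold change (HSD52_OE over control) was -0.35 for the members and 0.01 for all genes tested. Among protein-coding genes with a mean of at least 50 CPM, a level chosen after the values were seen, 39.9% were lower and 16% higher. Of the 36 members above that level 24 were lower and 4 higher. The median log2 fold change was -0.14 for those protein-coding genes and -0.38 for those members. The libraries of the 2 groups did not overlap for 42 members, 36 of them with HSD52_OE below and 6 with HSD52_OE above, where 29.3% and 29.6% of all genes tested did so. At 50 CPM or more, HSD52_OE lay below without overlap in 2130 of 4759 protein-coding genes and in 27 of 36 members. It lay above in 926 of those genes and in 4 of those members. The changes were mostly small: ALDOC and SLC16A3 were the only members to fall more than 2-fold, and PFKFB4 the only one to rise more than 2-fold.

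**Figure D1:**
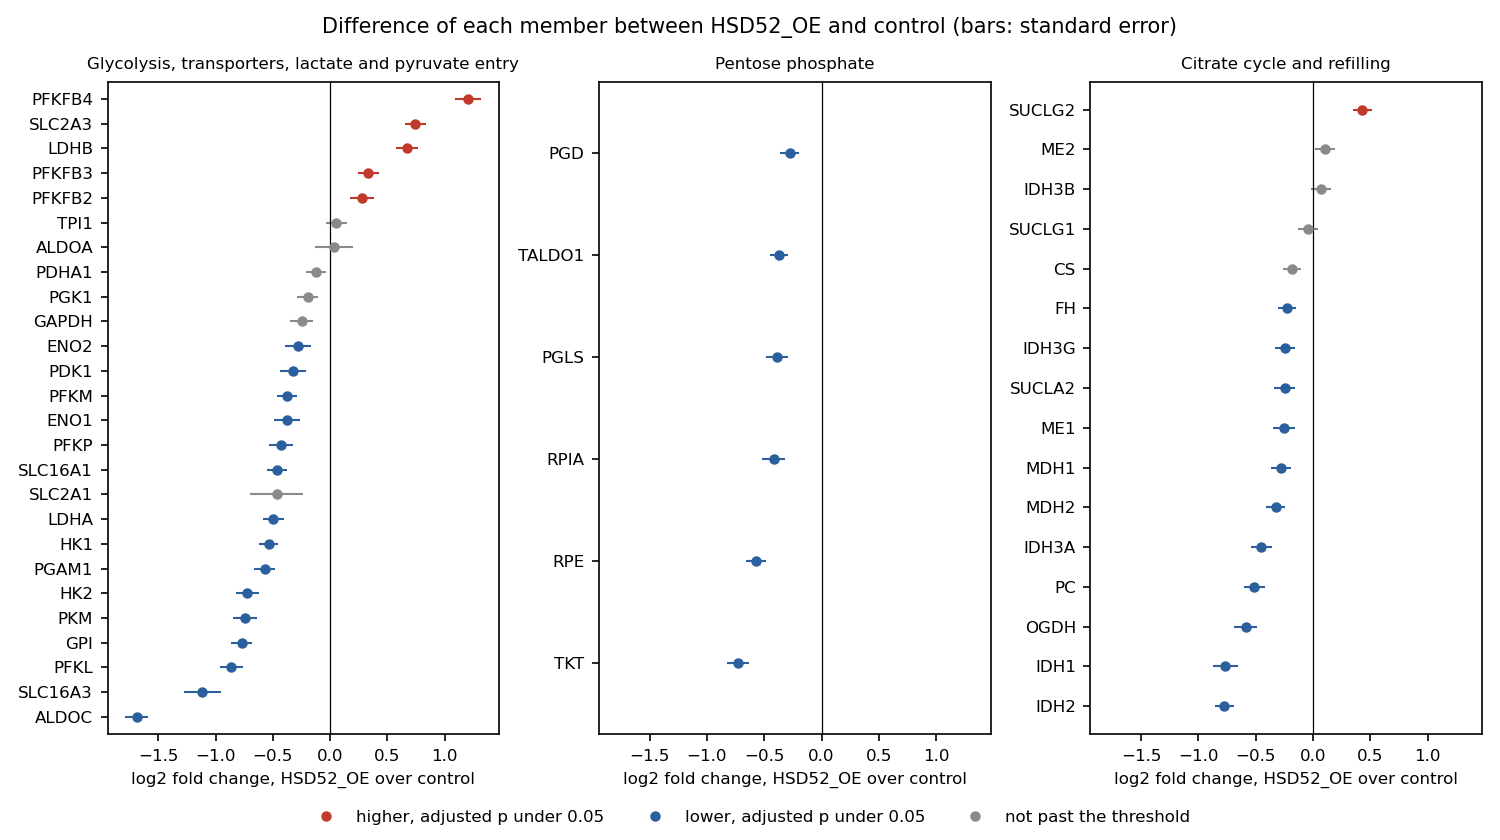
Log2 fold change of each of the 48 members, HSD52_OE over control, on the x axis with its standard error, in 3 panels by pathway. All 6 pentose phosphate genes lie below 0, and the 3 PFKFB genes lie above 0.

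In sum, the members took 2.03% ± 0.0580 of all counts in control and 1.68% ± 0.0482 in HSD52_OE libraries (SD, n = 3 each). The summed level of the glycolysis and transport genes was 17883, 18668 and 16610.2 CPM in control replicates 1 to 3 and 12940, 13527 and 13869 CPM in HSD52_OE replicates 1 to 3. For the pentose phosphate genes the sums were 1551, 1444 and 1413 CPM against 961, 965 and 986 CPM. For the citrate cycle genes they were 2075, 1977 and 1999 CPM against 1653, 1682 and 1690.0 CPM. HSD52_OE stood below every control library in each of the 3 sums, at 0.759, 0.661 and 0.831 of control. GAPDH, PKM, ENO1 and LDHA held 59.4% to 63.0% of the summed level of the members in every library, and the other 22 glycolysis and transport genes together stood at 0.848 of control. Divided by gene length, GAPDH was the most abundant member in both groups (1484 ± 60.6 CPM per kilobase in control, 1252 ± 71.8 in HSD52_OE). In control, PKM (503 ± 50.6 CPM per kilobase) and then ENO1 (462 ± 65.9) came next by mean, and their difference within libraries was not tested. In HSD52_OE, TPI1 (413 ± 10.8 CPM per kilobase) and ENO1 (356 ± 12.7) stood above PKM (300 ± 5.44). These sums, shares and ranks include ALDOA, whose level is uncertain. Of its exon bases 42.3% lie in exons of AC093512.2 on the same strand.

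Glucose enters through the facilitative transporters. SLC2A1 encodes GLUT1, the widespread transporter, and SLC2A3 encodes GLUT3, the high-affinity transporter typical of neurons. SLC2A1 had 177, 193 and 99.3 CPM in control replicates 1 to 3 and 117, 113 and 109.6 CPM in HSD52_OE replicates 1 to 3. Control replicate 3 lay below all HSD52_OE libraries and the other two lay above them, so the groups overlapped (log2 fold change -0.47 ± 0.23, edgeR adjusted p = 0.135, 4.84e-06 if control replicate 3 is left out, and 0.0164 if genes of low count are kept). SLC2A3 (chromosome 12, 7919230 to 7936275) had 31.9, 29.4 and 28.1 CPM in control and 49.1, 49.8 and 50.8 CPM in HSD52_OE. Every HSD52_OE library was above every control library, and SLC2A3 rose by 0.74 ± 0.09 on the log2 scale (edgeR adjusted p = 7.72e-06). Of the length-scaled level of this pair, SLC2A3 made up 10.5% to 17.8% in control libraries and 24.4% to 26.2% in HSD52_OE libraries.

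In the upper part of glycolysis, 7 of 9 genes were lower and none was higher, where 25.6% and 25% of all genes tested were so. Hexokinases trap glucose as its phosphate. HK2, the inducible form that many tumours express, had 129, 122 and 97.7 CPM in control and 72.1, 67.7 and 71.7 CPM in HSD52_OE (log2 fold change -0.72 ± 0.10, edgeR adjusted p = 2.81e-05). HK1, the constitutive form, had 281, 268 and 245 CPM in control and 177, 180.1 and 190.4 CPM in HSD52_OE (-0.54 ± 0.09, edgeR adjusted p = 0.000103). Neither gene overlapped between the groups, and the share of HK1 in the pair (68.8% ± 1.69 and 71.4% ± 0.936) did overlap. GPI, which isomerises glucose phosphate to fructose phosphate, had 372, 408 and 331 CPM in control and 209, 222 and 219.9 CPM in HSD52_OE, a log2 fold change of -0.77 ± 0.09 (edgeR adjusted p = 8.29e-06).

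Phosphofructokinase commits sugar to glycolysis, and its 3 subunit genes were all lower. PFKL, the liver-type subunit (chromosome 21, 44300051 to 44327376), had 186, 200.3 and 152 CPM in control and 95.6, 99.2 and 101 CPM in HSD52_OE. It fell by 0.86 ± 0.10 on the log2 scale (edgeR adjusted p = 5.02e-06). PFKM, the muscle-type subunit, had 157, 133 and 134 CPM in control and 104, 109.6 and 112 CPM in HSD52_OE (-0.38 ± 0.09, edgeR adjusted p = 0.00219). Of its exon bases 8.6% lie in exons of SENP1 on the other strand (5416 counts over all 6 libraries), a part that was not tested. The platelet-type subunit, PFKP, had 222, 239 and 169.9 CPM against 157, 157 and 155 CPM (-0.43 ± 0.11, edgeR adjusted p = 0.00370). None of the 3 overlapped between the groups. Within the family PFKL went from 24.2% ± 0.637 to 19.0% ± 0.351 of the length-scaled level, and the shares of PFKM and PFKP overlapped between the groups.

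The 3 PFKFB genes moved the other way. They encode bifunctional enzymes that make and break down the sugar bisphosphate that activates phosphofructokinase. PFKFB4 (chromosome 3, 48517684 to 48562015, minus strand) had 67.1, 75.6 and 51.6 CPM in control replicates and 139.9, 151 and 157 CPM in HSD52_OE replicates. The lowest HSD52_OE library was above the highest control library, and PFKFB4 rose by 1.21 ± 0.11 on the log2 scale (edgeR adjusted p = 7.91e-07), the largest increase among the 48 members. Of its exon bases 4.7% lie in exons of UCN2 on the same strand, which held 4417 counts over all 6 libraries. The part of reads there in the level and share of PFKFB4 was not tested. PFKFB3, whose product favours the kinase reaction, had 135, 142 and 113 CPM in control and 158, 165 and 169 CPM in HSD52_OE (log2 fold change 0.33 ± 0.09, edgeR adjusted p = 0.00690). PFKFB2, known from heart, had 19.7, 18.0 and 19.9 CPM in control and 24.2, 21.6 and 23.9 CPM in HSD52_OE (0.28 ± 0.10, edgeR adjusted p = 0.0362). The PFKFB2 call was lost under 6 of 14 alternatives, with the highest edgeR adjusted p, 0.152, without HSD52_OE replicate 1; leaving out control replicates 1 or 2 or HSD52_OE replicate 3 gave 0.0552, 0.0890 and 0.124. In the family, PFKFB4 went from 31.2% ± 1.96 to 45.7% ± 0.699 of the length-scaled level and PFKFB3 from 63.1% ± 0.946 to 50.1% ± 0.413.

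Aldolase cleaves the sugar bisphosphate that phosphofructokinase itself produces, a different one from that made by the PFKFB enzymes. ALDOC, the brain-type aldolase (chromosome 17, 28573115 to 28577264, minus strand), had 52.6, 48.7 and 48.3 CPM in control and 15.8, 16.2 and 14.4 CPM in HSD52_OE. All HSD52_OE libraries were under the control range by far, and ALDOC fell by 1.69 ± 0.10 on the log2 scale (edgeR adjusted p = 6.94e-09), the largest decrease among the members. ALDOA, the ubiquitous aldolase, had only 15.9, 26.01 and 15.4 CPM in control and 20.9, 18.4 and 19.3 CPM in HSD52_OE, and the groups overlapped (log2 fold change 0.03 ± 0.17, edgeR adjusted p = 0.890). The annotation places 42.3% of the exon bases of ALDOA inside exons of AC093512.2 on the same strand, which held 304 counts over all 6 libraries, so reads there belong to either gene and the level of ALDOA is uncertain. The share of ALDOA in the pair, 22.1% ± 5.6 in control and 48.6% ± 2.34 in HSD52_OE, has the same limit. TPI1, which interconverts the triose phosphates, had 1075 ± 45.8 and 1115 ± 29.2 CPM and overlapped between the groups (edgeR adjusted p = 0.651).

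In the lower part, from GAPDH to PKM, all 6 genes had HSD52_OE libraries below the control range and 4 passed the test. Over all genes tested 29.3% lay below the control range and 25.6% passed as lower. PKM, the pyruvate kinase gene whose 2 splice forms the counts do not separate, had 4514, 4600.3 and 3809 CPM in control and 2515, 2601 and 2589 CPM in HSD52_OE. It fell by 0.75 ± 0.11 on the log2 scale (edgeR adjusted p = 3.42e-05). PGAM1, the phosphoglycerate mutase, had 556, 646 and 567 CPM against 376, 401 and 414 CPM (log2 fold change -0.57 ± 0.09, edgeR adjusted p = 0.000127). PKM and PGAM1 were the clearest changes of the lower part. The ubiquitous enolase gene ENO1 went from 2439 ± 348 to 1879 ± 67.0 CPM (edgeR adjusted p = 0.0105, 0.0567 with library totals, 0.0613 without HSD52_OE replicate 1 and 0.0502 without HSD52_OE replicate 2), and the neuronal form ENO2 from 26.5 ± 2.999 to 21.9 ± 1.99 CPM (edgeR adjusted p = 0.0490, lost under 8 of 14 alternatives, among them leaving out control replicate 1 or HSD52_OE replicates 1 or 3). GAPDH, often used as a reference gene, had 4243, 4428 and 4604 CPM in control and 3509, 3752 and 3935 CPM in HSD52_OE. Its log2 fold change was -0.25 ± 0.10 (edgeR adjusted p = 0.0521), and it passed under 5 of 14 alternatives. PGK1, the first ATP-yielding kinase, had 726 ± 36.3 and 634 ± 24.2 CPM (edgeR adjusted p = 0.0804), and passed under 3. Processed pseudogenes named after GAPDH and TPI1 held counts equal to 0.405% and 1.35% of those of the gene, and reads shared with such copies could not be told apart.

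Among the genes of lactate handling, 3 were lower and LDHB was higher, where 25.6% and 25% of all genes tested were so. LDHA encodes the subunit of lactate dehydrogenase that predominates in glycolytic tissue, and LDHB the subunit that predominates in heart. LDHA had 2059, 2115 and 2045 CPM in control and 1407, 1472 and 1537 CPM in HSD52_OE, a fall of 0.49 ± 0.09 on the log2 scale (edgeR adjusted p = 0.000451). LDHB (chromosome 12, 21635342 to 21757857, minus strand) had 59.8, 48.7 and 48.7 CPM in control and 81.6, 87.0 and 81.9 CPM in HSD52_OE, a rise of 0.67 ± 0.09 (edgeR adjusted p = 3.22e-05). Neither overlapped, and the share of LDHB in the length-scaled pair was 4.58% to 5.70% in control and 9.98% to 11.0% in HSD52_OE. Of the exon bases of LDHB, 33.4% lie in exons of AC010197.2 on the same strand, which held 6 counts, so its level relative to LDHA is uncertain. SLC16A3 encodes MCT4, the lactate exporter of glycolytic cells, and had 79.5, 91.1 and 52.7 CPM in control and 35.1, 33.0 and 34.9 CPM in HSD52_OE. It fell by 1.12 ± 0.16 on the log2 scale (edgeR adjusted p = 0.000188), with every HSD52_OE library below every control library. Of the exon bases of SLC16A3, 5.4% lie in exons of CSNK1D on the other strand. CSNK1D held 18669 counts over all 6 libraries and SLC16A3 held 5886. The part of reads there in the level of SLC16A3 was not tested. SLC16A1, encoding the more widespread carrier MCT1, had 125, 109.8 and 102 CPM against 84.0, 80.2 and 79.9 CPM (-0.46 ± 0.09, edgeR adjusted p = 0.000513). BSG, the chaperone of both carriers and no member of the list, was also lower, at 785, 760.2 and 569 CPM in control and 559, 531 and 562 CPM in HSD52_OE (edgeR adjusted p = 0.0154).

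Pyruvate enters mitochondria and is converted by the pyruvate dehydrogenase complex, which PDK kinases switch off. PDK1 went from 24.7 ± 3.20 to 19.7 ± 0.123 CPM (edgeR adjusted p = 0.0226, lost under 6 of 14 alternatives, among them leaving out control replicate 2 or HSD52_OE replicates 1, 2 or 3). PDHA1, the catalytic subunit gene, had 42.6 ± 2.62 and 39.0 ± 0.790 CPM and did not pass (edgeR adjusted p = 0.255).

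**Figure D2:**
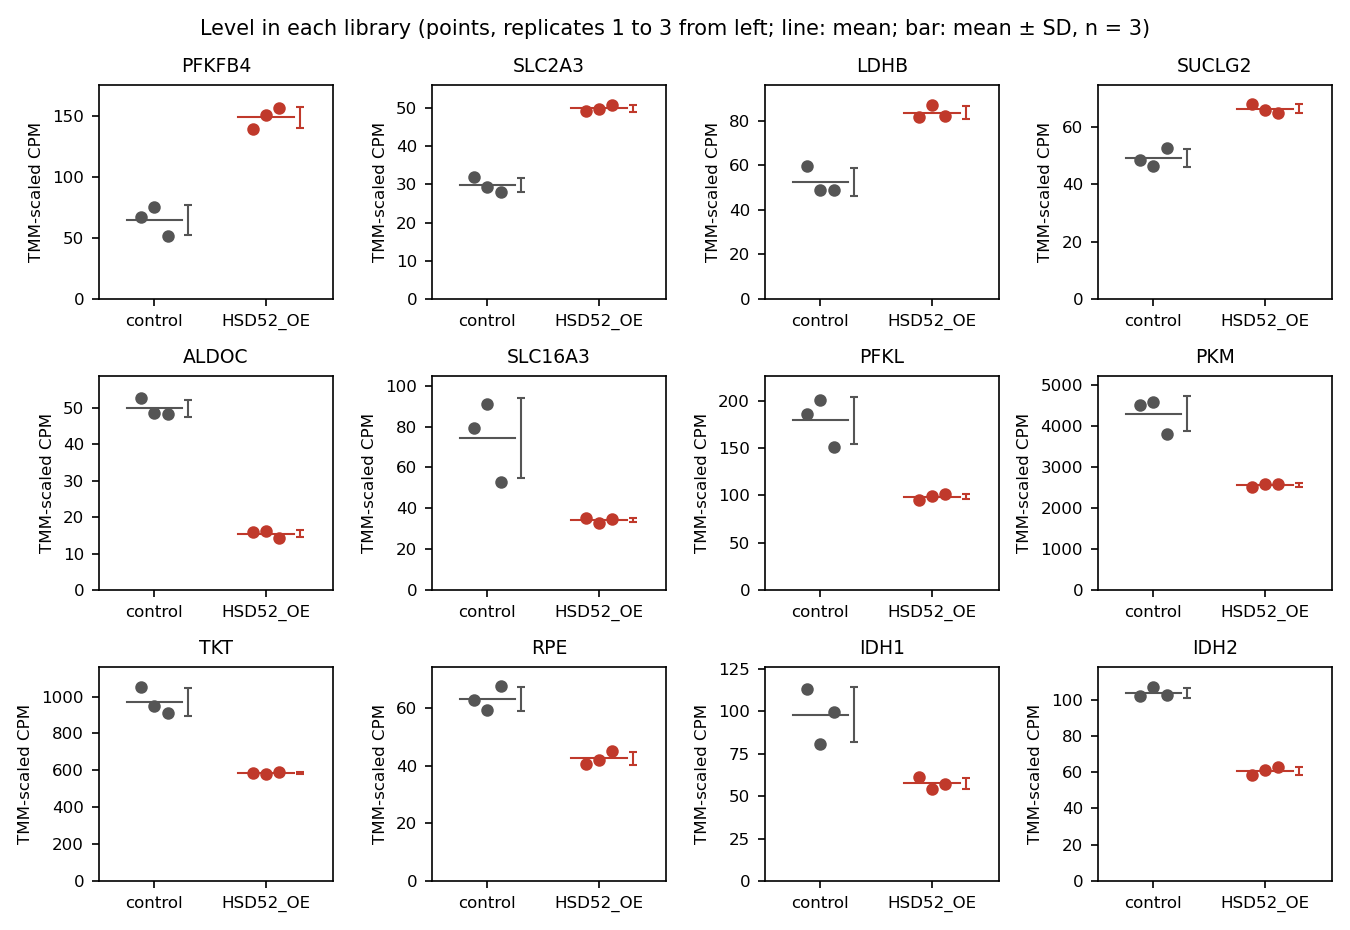
TMM-scaled CPM (y axis, from 0) of 12 members in each of the 6 libraries, as points, with the mean as a line and the mean ± SD as a bar (n = 3 per group). In all 12 panels the groups do not overlap; the top row holds members that were higher in HSD52_OE, and the other rows hold members that were lower.

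All 6 pentose phosphate genes were lower in HSD52_OE, with log2 fold changes from -0.73 to -0.28 and a median of -0.40, and in none did the groups overlap. Over all genes tested 25.6% were lower, and 29.3% lay below control without overlap. TKT, the transketolase gene of the non-oxidative branch (chromosome 3, 53224707 to 53256052, minus strand), had 1053, 949 and 909.5 CPM in control and 583, 582 and 592 CPM in HSD52_OE. It fell by 0.73 ± 0.09 on the log2 scale (edgeR adjusted p = 1.31e-05). RPE, the epimerase that feeds it, had 62.9, 59.2 and 67.5 CPM against 40.6, 42.1 and 45.0 CPM (-0.57 ± 0.09, edgeR adjusted p = 8.06e-05). Of the exon bases of RPE, 23.8% overlap KANSL1L on the other strand, and the sources used here give no strand setting. RPIA, the isomerase that makes ribose phosphate, had 31.4, 37.6 and 37.1 CPM against 26.5, 27.9 and 25.2 CPM (-0.42 ± 0.10, edgeR adjusted p = 0.00296). The transaldolase gene TALDO1 went from 221 ± 7.84 to 171 ± 2.48 CPM. In the oxidative branch, PGLS, the lactonase, went from 41.8 ± 2.93 to 31.9 ± 1.196 CPM. PGD, the NADPH-yielding dehydrogenase, went from 137 ± 8.95 to 113 ± 4.99 CPM (edgeR adjusted p = 0.0112). That call was lost when libraries were scaled by their totals (0.124) and without HSD52_OE replicates 1 (0.0759) or 2 (0.0511).

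Of the 16 genes of the citrate cycle and its refilling, 11 were lower, SUCLG2 was higher and 4 did not pass. The lower count was the least stable of the 3 pathways. It was 5 when libraries were scaled by their totals, 7 when protein-coding genes alone were tested, and 6, 6 and 7 without HSD52_OE replicates 1, 2 and 3. Over all genes tested 4173 (25.6%) were lower in the main fit. That number was 2933 with library totals and 3374 with protein-coding genes alone. Without HSD52_OE replicates 1, 2 and 3 it was 3445, 3313 and 3514. IDH2, the mitochondrial NADP-dependent isocitrate dehydrogenase (chromosome 15, 90083045 to 90102504, minus strand), had 102, 107 and 102 CPM in control and 58.2, 61.1 and 62.8 CPM in HSD52_OE. It fell by 0.77 ± 0.08 on the log2 scale (edgeR adjusted p = 1.87e-06). IDH1, its cytosolic counterpart (chromosome 2, 208236227 to 208266074, minus strand), had 113, 80.9 and 99.9 CPM against 61.2, 54.5 and 57.1 CPM (-0.77 ± 0.11, edgeR adjusted p = 3.52e-05). Both fell to a similar extent, and the share of IDH1 in the pair was 35.9% ± 4.45 in control and 36.1% ± 2.10 in HSD52_OE, with overlapping libraries.

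The NAD-dependent isocitrate dehydrogenase has 3 kinds of subunit, each with its own gene. IDH3A, the catalytic subunit, had 48.0, 48.5 and 45.3 CPM in control and 34.4, 36.7 and 32.8 CPM in HSD52_OE (-0.45 ± 0.09, edgeR adjusted p = 0.000635). Of its exon bases 38.9% overlap other genes on the other strand. For IDH3G it was 10.2%, in exons of SSR4 (15340 counts over all 6 libraries). The part of reads there was not tested. IDH3G went from 59.2 ± 3.92 to 49.95 ± 1.54 CPM (edgeR adjusted p = 0.0258, lost under 5 of 14 alternatives, among them leaving out HSD52_OE replicates 1, 2 or 3), while IDH3B had 172 ± 15.97 and 180.3 ± 4.74 CPM with overlapping groups (edgeR adjusted p = 0.514). Differences between these subunit genes were not tested.

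OGDH, the first component of the oxoglutarate dehydrogenase complex, had 202, 183 and 151 CPM in control and 116, 119.5 and 120.4 CPM in HSD52_OE (-0.59 ± 0.10, edgeR adjusted p = 0.000162). PC, pyruvate carboxylase, which refills the cycle with oxaloacetate, had 136, 116 and 109 CPM against 84.1, 84.3 and 84.5 CPM (-0.51 ± 0.09, edgeR adjusted p = 0.000258). Of its exon bases 10.5% lie in exons of LRFN4 on the other strand (6147 counts over all 6 libraries), a part that was not tested. MDH2, the mitochondrial malate dehydrogenase, had 357, 358 and 352 CPM against 274, 282 and 297 CPM (-0.32 ± 0.08, edgeR adjusted p = 0.00429, and 0.0507 with library totals). In these 3 genes no HSD52_OE library reached the control range. The smaller calls were MDH1 (221 ± 18.5 to 182 ± 1.28 CPM), FH, the fumarase gene (119 ± 2.75 to 102 ± 2.96 CPM), and ME1, the cytosolic malic enzyme gene (29.01, 29.7 and 32.2 CPM, then 26.4, 25.2 and 24.7 CPM). Of 14 alternatives, the call was lost under 3 for MDH1, 5 for FH and 8 for ME1. All 3 lost it under scaling by library totals and without HSD52_OE replicates 1 or 2, FH and ME1 also without HSD52_OE replicate 3, and ME1 without control replicate 3.

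Succinyl-CoA ligase pairs a common subunit with a subunit that sets its nucleotide. SUCLG2, the GTP-forming subunit (chromosome 3, 67360460 to 67654614, minus strand), had 48.6, 46.3 and 52.6 CPM in control and 68.1, 65.8 and 64.9 CPM in HSD52_OE, a rise of 0.43 ± 0.08 on the log2 scale (edgeR adjusted p = 0.000620). SUCLA2, the ATP-forming subunit, had 41.8, 41.3 and 48.7 CPM against 37.2, 35.8 and 38.0 CPM (-0.25 ± 0.09, edgeR adjusted p = 0.0375, lost under 8 of 14 alternatives, among them leaving out control replicate 3 or HSD52_OE replicates 1, 2 or 3). The common subunit gene SUCLG1 had 85.8 ± 4.46 and 83.3 ± 6.11 CPM and overlapped between the groups (edgeR adjusted p = 0.696). Of the length-scaled level of the 2 nucleotide-specific subunits, SUCLG2 made up 76.4% ± 0.663 in control and 83.8% ± 0.558 in HSD52_OE. CS, citrate synthase, the entry enzyme of the cycle, had 265, 247 and 263 CPM in control and 228, 227 and 229 CPM in HSD52_OE, without overlap, yet did not pass (edgeR adjusted p = 0.0703). ME2, the mitochondrial malic enzyme gene, had 74.9, 69.4 and 81.9 CPM against 80.4, 81.7 and 81.2 CPM (edgeR adjusted p = 0.314).

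Isozyme make-up was compared over 12 families, each by the share of the length-scaled level held by its first-listed gene. In 8 families that share did not overlap between the groups, each with an exact 2-sided permutation p = 0.1, the smallest that 3 libraries against 3 allow, and a Benjamini-Hochberg value of 0.150. No family could therefore pass 0.05. The widest shifts of a first-listed gene were in the aldolases (26.5 percentage points towards ALDOA) and the glucose transporters (11.8 points from SLC2A1 towards SLC2A3). In the PFKFB family the first-listed gene, PFKFB2, went from 5.67% to 4.27%, and the share of PFKFB4, 14.4 points larger in HSD52_OE, was not tested. The monocarboxylate transporters moved 7.96 points towards SLC16A1, succinyl-CoA ligase 7.39 points towards SUCLG2, the malic enzymes 5.84 points towards ME2 and lactate dehydrogenase 5.57 points towards LDHB. Without division by gene length the shift towards LDHB was 2.91 points, that towards SUCLG2 11.3 points and that towards SLC16A1 9.82 points. The shares in the hexokinase, enolase, NADP-dependent isocitrate dehydrogenase and malate dehydrogenase families overlapped.

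**Figure D3:**
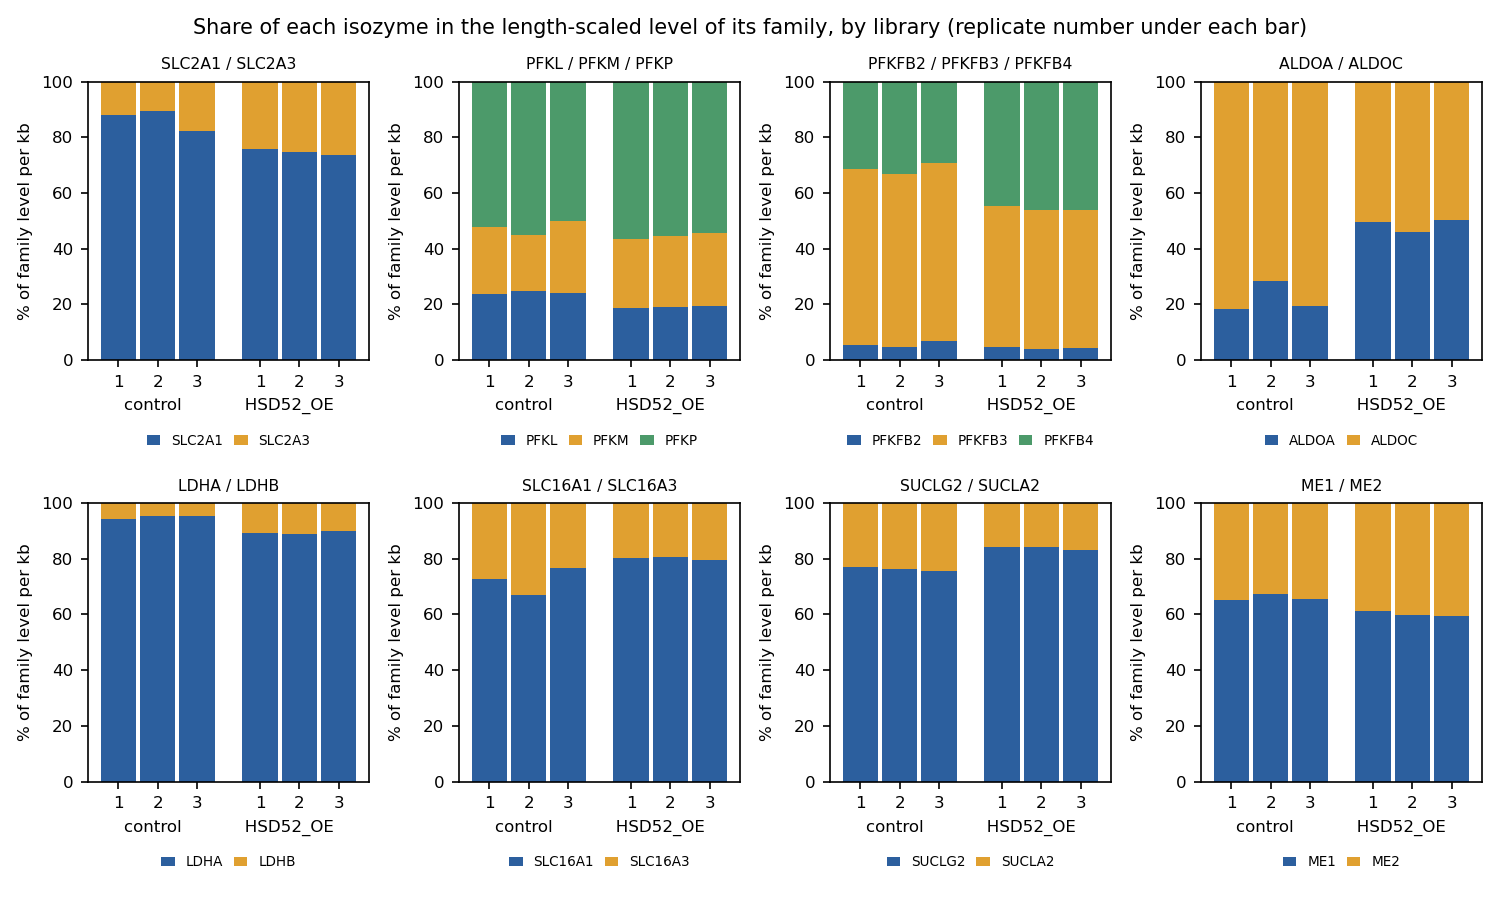
Share of each isozyme (y axis, percent) in the length-scaled level of its family, 1 bar per library, for the 8 families whose first-listed gene did not overlap between the groups. SLC2A3, PFKFB4, LDHB and SUCLG2 take larger shares in the 3 HSD52_OE libraries than in the 3 control libraries, and the ALDOA share is uncertain because of the overlapping gene.

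The position of the members on the chromosomes was examined next. For each member, the median log2 fold change was taken over the tested genes that start within 1 Mb. ALDOC lay among 40 such genes with a median of -0.75, of which 27 were lower and 3 higher. SLC2A3 lay among 25 with a median of 0.62, 16 of them higher and 1 lower, and LDHB among 12 with a median of 0.58, 8 of them higher. SUCLG2 had 3 such neighbours, with a median of 0.73. Of the 6 members that were higher, these 3 thus had neighbours with medians near or above their own change, whereas the neighbours of PFKFB4 had a median of -0.12 (42 genes, 15 lower and 5 higher), those of PFKFB2 one of -0.19 (13 genes) and those of PFKFB3 one of 0.18 (14 genes). SLC16A3 lay among 67 such genes with a median of -0.30, of which 35 were lower and 11 higher. The neighbours of TKT, GPI, HK2 and PKM had medians of -0.04, -0.09, -0.07 and -0.03. These medians, and that for SLC16A3, were nearer to 0 than the members themselves. IDH1 and IDH2 had neighbours at -0.56 (7 genes) and -0.43 (31 genes). Relative to the median of their neighbours 40 of 48 members were lower, and relative to 0 the number was 38. The median of the difference was -0.24 over all members, -0.45 for glycolysis and transport, -0.28 for the pentose phosphate genes and -0.20 for the citrate cycle genes. The part of such neighbourhoods in the change of a member was not tested.

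**Figure D4:**
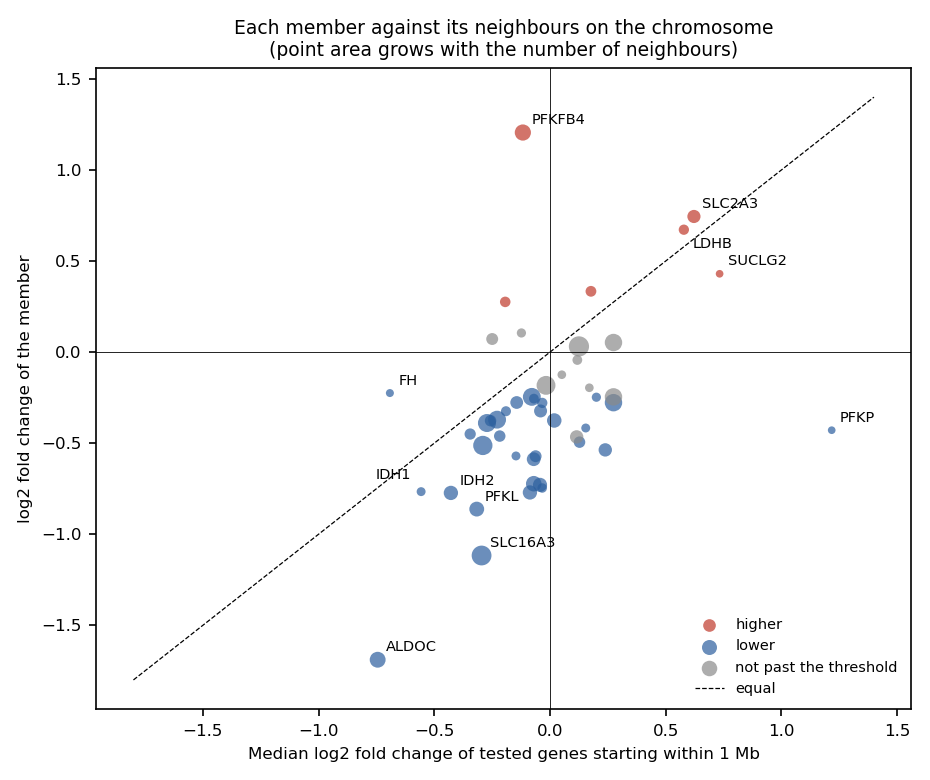
Log2 fold change of each member (y axis) against the median log2 fold change of the tested genes that start within 1 Mb of it (x axis). SLC2A3, LDHB and ALDOC lie where their neighbours moved the same way, PFKFB4 lies far above its neighbours, and most other members lie below the dashed line of equal change.

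Promoter sequence was read for a description of what the members share. RefSeq (GRCh38.p14) gave a promoter for 44 of the 48 members. For 40 of these the next 30 bases lay in a GENCODE 29 transcript of the gene. The PFKFB3 promoter printed below was not among those 40. The 5-letter motif ACGTG, the core shared by hypoxia response elements and many E-boxes, was sought on both strands in the 250 bases before the start. It was present in 12 of 44 members (27.3%) and in 20.4% of 17393 promoters of genes in the table. Of the 30 members that were lower 9 held it, as did 3 of the 10 without a call, the same share, and 0 of the 4 higher members with a promoter. The 6-letter E-box CACGTG, which contains ACGTG, was present in 3 of 44 members (6.82%) and in 7.52% of all promoters. The promoters of 5 members are shown 5′ to 3′, trimmed to the longest stretch outside annotated exons, to show the letters before called members of each pathway, a choice made after the values were seen: LDHA and PFKL in glycolysis, PFKFB3 among the genes that rose, TKT in the pentose phosphate pathway and IDH1 beside the citrate cycle. Capitals mark ACGTG on either strand, which reads CACGTG where both strands match.
LDHA, chr11:18394313-18394387, plus strand: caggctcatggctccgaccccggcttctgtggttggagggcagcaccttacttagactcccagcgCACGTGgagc
PFKL, chr21:44299803-44300050, plus strand: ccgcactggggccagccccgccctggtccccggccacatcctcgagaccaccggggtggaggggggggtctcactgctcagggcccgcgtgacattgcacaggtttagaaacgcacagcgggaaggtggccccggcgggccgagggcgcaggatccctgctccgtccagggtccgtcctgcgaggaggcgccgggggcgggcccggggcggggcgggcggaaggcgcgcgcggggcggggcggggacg
PFKFB3, chr10:6144671-6144920, plus strand: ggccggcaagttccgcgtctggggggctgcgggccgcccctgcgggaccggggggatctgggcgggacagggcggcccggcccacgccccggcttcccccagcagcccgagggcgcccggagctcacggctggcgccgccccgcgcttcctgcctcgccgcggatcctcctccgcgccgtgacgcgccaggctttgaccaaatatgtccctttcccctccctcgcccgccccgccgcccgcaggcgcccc
TKT, chr3:53256053-53256272, minus strand: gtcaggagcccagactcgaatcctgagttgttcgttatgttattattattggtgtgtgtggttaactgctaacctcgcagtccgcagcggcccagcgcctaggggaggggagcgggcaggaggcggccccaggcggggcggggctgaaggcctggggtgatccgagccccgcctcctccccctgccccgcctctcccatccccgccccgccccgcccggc
IDH1, chr2:208254459-208254708, minus strand: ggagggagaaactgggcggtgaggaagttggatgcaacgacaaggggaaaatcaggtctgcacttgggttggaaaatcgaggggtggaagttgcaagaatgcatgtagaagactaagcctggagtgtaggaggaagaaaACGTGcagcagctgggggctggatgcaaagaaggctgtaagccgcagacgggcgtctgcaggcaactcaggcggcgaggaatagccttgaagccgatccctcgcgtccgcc
The motif stands in the stretches of LDHA and IDH1 and in none of the other 3. The full 250 bases before LDHA held 5 matches of ACGTG, counted on each strand, and 2 of CACGTG, so the trimmed stretch does not show all of them. A match is a description of the letters and not a bound site.

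Other genes of the same pathways, a list of 87 that are not members, moved less uniformly. Of 66 that passed the low-count filter, 19 were lower (28.8%) and 10 were higher (15.2%), beside the 25.6% and 25% of all genes tested. By pathway, 9 of 34 glycolysis-related genes were lower and 7 higher, 2 of 8 pentose-related genes were lower and 0 higher, and 8 of 24 citrate-related genes were lower and 3 higher. The largest decreases were in SLC25A1, the mitochondrial citrate exporter (141, 147 and 139 CPM in control, 80.2, 70.6 and 82.7 CPM in HSD52_OE), and in ACO1, the cytosolic aconitase (115, 87.9 and 92.6 CPM, then 55.7, 54.4 and 60.0 CPM). PDK4 and TXNIP, an inhibitor of glucose uptake, fell by 0.71 and by 0.61 on the log2 scale. The groups did not overlap in any of these 4 genes.

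Among the increases were OGDHL, an oxoglutarate dehydrogenase homologue (2.04, 1.88 and 1.83 CPM in control, 5.06, 6.03 and 4.77 CPM in HSD52_OE), and TIGAR, a phosphatase that lowers glycolytic flux (2.63, 1.71 and 3.61 CPM, then 7.70, 7.23 and 6.75 CPM). TIGAR rose by 1.44 ± 0.22 on the log2 scale (edgeR adjusted p = 7.03e-05). PGM2L1 rose by 1.32, MPC1, a subunit of the mitochondrial pyruvate carrier, by 0.69 and SLC2A6 by 0.66 on the log2 scale. MPC2, the partner subunit of MPC1, went the other way, from 25.97 ± 1.78 to 18.7 ± 0.599 CPM (edgeR adjusted p = 0.00126). Of the 4 succinate dehydrogenase genes, SDHA and SDHC were lower (edgeR adjusted p = 0.000194 and 0.0120), and SDHB and SDHD did not pass.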

How the data were processed

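Per the submitters' processing notes, reads of poly-A selected libraries were aligned with HISAT2 2.0.5 to hg38 and counted per gene with featureCounts 1.5.0-p3. No source used here gives the annotation release, the strand setting or the treatment of reads in overlapping genes. The deposited values were raw counts, with gene names, coordinates and lengths, for 58735 genes. For all 48 members start, end and exon length equalled those of GENCODE 29, which was used for exon overlaps.

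The whole table was fitted at once: filterByExpr (16322 genes kept), TMM scaling, edgeR 4.0.16 quasi-likelihood test (robust, 2-sided, group alone; R 4.3.3), Benjamini-Hochberg adjustment over all genes tested, threshold 0.05. CPM are TMM-scaled. The standard error is the log2 fold change over the square root of its F statistic. Counts were simulated for this comparison (16003 genes tested) with the same spread in both groups. In them 67, 67 and 66 genes, none of low count, were changed 1.5-, 2- and 4-fold. The test recovered 77.6%, 95.5% and 100% of these, and 4.71% of calls were false. In the data 50.6% of genes were called, and control libraries varied more than HSD52_OE libraries. The simulated rates therefore need not hold for the calls given here. Isozyme shares used counts per kilobase. Alternatives included RLE factors, library totals, other filters, DESeq2 1.42.0, limma-voom (limma 3.58.1), protein-coding genes alone, a replicate block and leaving out each library.

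The members, companion genes, families and markers were chosen with earlier results of these data known. Values in every library are given for the called members with the largest absolute log2 fold change (up to 8, 3 and 6 per direction in the 3 pathways) and for the families whose shares did not overlap. From the companion genes up to 5 per direction were named, with a mean of at least 2 CPM; some genes are not reported here. GAPDH, CS, MPC2, BSG and the succinate dehydrogenase genes were added after their values were seen.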

Additional observations from a re-analysis of the deposited data

How the results depend on the processing

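Over 14 alternatives, the counts of lower and higher genes in glycolysis and the pentose phosphate pathway stayed within 1.5 times their values. Library totals shifted the median over all genes tested from 0.01 to 0.13 on the log2 scale and split the calls into 5337 higher and 2933 lower, against 4086 and 4173. With them the citrate cycle had 5 lower and 2 higher genes and the companion genes 18 higher, and the summed levels were 0.827, 0.720 and 0.905 of control for glycolysis, pentose phosphate and citrate cycle genes. With protein-coding genes alone 7 citrate cycle genes were lower, and leaving out 1 library gave 6 to 12. The cause was not tested.

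Members near 0 changed sign: ALDOA was -0.0073 with no low-count filter and -0.11 to 0.31 when 1 library was left out. PDHA1 was 0.0013 with library totals. SUCLG1 was 0.0797 with library totals, 0.0146 with protein-coding genes alone and -0.0926 to 0.0058 with 1 library left out, and IDH3B was -0.0082 to 0.12 in the last setting. There, too, the shares of ENO1, IDH1 and MDH1 in their families differed by -0.14 to 0.0482, by -2.17 to 2.22 and by -0.244 to 1.75 points.

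The replicate numbers are not stated to pair libraries, and deviations of same-numbered libraries correlated at 0.0383, 0.0307 and 0.0328. Those of differently numbered libraries correlated at -0.0218 to -0.0127. Pairing itself was not tested. With a replicate block 16, 6 and 11 members were lower and 5, 0 and 1 higher in the 3 pathways, and SLC2A1 was the 1 member whose call changed (-0.41, edgeR adjusted p = 0.0147).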
